A study of Homo sapiens with 18 samples.

Results

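Genes that were high for a short time, at day 2 of neural differentiation, in both of the neural ectoderm populations made from human pluripotent stem cells are described here. They were chosen from the deposited expression table by group means of log2(TPM + 1), where TPM is a transcript abundance scaled to library size, a level per transcript length. A gene was taken when the lower of its anterior and posterior day-2 means was above the day-0 mean and above each of the 6 day-4 means by at least 0.8, and when its mean was at least 5 TPM in both day-2 groups. Of the 37550 rows of the table, 29648 carried a gene symbol, 10390 of these reached 5 TPM in both day-2 groups, and 31 met the whole rule. No row without a symbol met it. Because measured values chose these genes, their rise into day 2 and their fall after it are described and not tested.

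The cells were the established wild-type human line H1, in 9 groups of 2 libraries of poly-A-selected RNA, 18 in all, and TPM keeps no record of the reads behind a value. The groups were undifferentiated stem cells (hPSC, day 0), the day-2 anterior population (aNE, anterior neural ectoderm), the day-2 posterior population (pNE, posterior neural ectoderm), and day-4 cells grown on from either of these in forebrain medium (aNE_T and pNE_T), midbrain medium (aNE_M and pNE_M) or hindbrain medium (aNE_H and pNE_H). Every differentiated group spent day 1 in the same ectoderm medium, which held the TGF-beta receptor inhibitor A8301 at 1 µM, the MEK inhibitor trametinib at 250 nM, the porcupine inhibitor C59 at 1 µM and the BMP receptor inhibitor LDN193189 at 100 nM. On day 2 both media kept A8301 and LDN193189. The aNE medium also held C59 at 1 µM. The pNE medium instead held 50 nM of TTNPB, which activates retinoic acid receptors, with 20 ng/mL of FGF2 and 1 µM of XAV939, which blocks tankyrase. Forebrain medium held XAV939, LDN193189 and FGF2 on day 3, and the rest of its composition and that of the other regional media were not used here. Both day-2 groups also shared a passage with Accutase at the end of day 1, the ROCK inhibitor thiazovivin at 1 µM in that medium, and plating at 37500 cells per cm2. Cells collected at day 4 had been plated more densely, at 75000 per cm2 in the aNE arm and 150000 per cm2 in the pNE arm. Day of collection, time since passage, thiazovivin and density therefore cannot be told apart in the day-2 pattern, and origin and density cannot be told apart at day 4. The labels name 2 biological replicates but not what separated them, so p-values measure the spread between these libraries.

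Between pluripotency and a patterned neural plate, cells pass through an early neural ectoderm stage in which pluripotency factors fall and regional identity is not yet fixed. Retinoic acid is one of the signals that posteriorise neural tissue. Cells clear it with CYP26 enzymes, whose CYP26A1 gene is itself switched on by the retinoic acid receptor. FGF receptors carry another posteriorising and proliferative signal through ERK. The other genes of the set belong to different systems, among them arginine and proline metabolism, peptide loading for MHC class I, the extracellular matrix, actin and programmed cell death.

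Upstream stretches of 250 bases, from RefSeq on GRCh38.p14, are shown for the gene with the largest margin and for the 2 closest pairs of neighbouring genes, because members that lie side by side may share upstream sequence. The table of promoter windows held 18 of the 31 genes, with 23 windows of 300 bases. The CYP26A1 stretch lies at chr10:93073643-93073892 on the plus strand, before the more downstream of its 2 listed starts. Capitals mark AGTTCA on either strand, the letters of a known retinoic acid receptor recognition sequence.
CYP26A1: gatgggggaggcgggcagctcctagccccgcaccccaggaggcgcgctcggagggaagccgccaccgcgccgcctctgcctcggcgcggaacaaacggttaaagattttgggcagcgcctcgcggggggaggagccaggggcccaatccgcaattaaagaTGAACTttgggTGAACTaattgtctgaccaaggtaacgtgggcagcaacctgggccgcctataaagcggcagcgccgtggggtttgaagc

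The stretch held 2 copies in the same orientation with 5 bases between them. AGTTCA was present on either strand in 10.4% of all 35116 windows and in 2 of the 23 windows of the set, those of CYP26A1 and PAPLN. The repeat with 5 free bases was present in 4 of all windows, of which 1 was that of CYP26A1. These letters were searched after the sequences were seen.

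TAP1 and PSMB9 lie head to head on chromosome 6, with 487 bases between the ends of their gene bodies. Their upstream stretches are at chr6:32853705-32853954 on the minus strand and chr6:32853942-32854191 on the plus strand. Capitals mark the core of an interferon-stimulated response element on either strand, GAAA repeated after 2 free bases, also searched after the sequences were seen.
TAP1: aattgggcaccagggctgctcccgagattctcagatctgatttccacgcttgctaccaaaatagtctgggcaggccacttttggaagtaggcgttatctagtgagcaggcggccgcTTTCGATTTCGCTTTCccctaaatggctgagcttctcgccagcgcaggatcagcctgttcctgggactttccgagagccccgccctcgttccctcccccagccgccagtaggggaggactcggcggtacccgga
PSMB9: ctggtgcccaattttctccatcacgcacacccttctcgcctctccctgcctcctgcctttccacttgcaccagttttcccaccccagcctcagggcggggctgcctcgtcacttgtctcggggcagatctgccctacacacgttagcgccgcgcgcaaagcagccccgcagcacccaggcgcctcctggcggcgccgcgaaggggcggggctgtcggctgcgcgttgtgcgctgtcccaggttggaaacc

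The TAP1 stretch held 2 overlapping cores and the PSMB9 stretch none. The core was in 3.57% of all windows and in 2 of the 23 windows of the set, those of TAP1 and CYP26A1.

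SERPINB3 and SERPINB4 are tandem copies on chromosome 18, 10940 bases apart. Their upstream stretches, at chr18:63661894-63662143 and chr18:63644257-63644506, both on the minus strand, were identical at 247 of 250 positions. Capitals mark the 3 positions that differ.
SERPINB3: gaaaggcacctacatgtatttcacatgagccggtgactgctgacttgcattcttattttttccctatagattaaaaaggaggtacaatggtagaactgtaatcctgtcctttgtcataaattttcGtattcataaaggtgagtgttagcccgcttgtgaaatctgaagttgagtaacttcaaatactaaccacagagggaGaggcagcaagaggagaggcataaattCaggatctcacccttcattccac
SERPINB4: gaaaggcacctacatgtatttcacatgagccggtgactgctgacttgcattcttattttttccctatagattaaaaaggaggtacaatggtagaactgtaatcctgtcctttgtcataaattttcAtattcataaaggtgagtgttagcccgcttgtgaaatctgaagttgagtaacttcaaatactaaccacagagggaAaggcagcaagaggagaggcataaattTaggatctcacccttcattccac

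The only other pair of the 31 genes within 100 kb of each other was DRD4 and EPS8L2 on chromosome 11, 65524 bases apart. By RefSeq, 28 of the 31 are protein coding and 3 are pseudogenes, and they lie on 17 chromosomes. Of the motifs searched on both strands in all windows, CATTCC, the core bound by TEAD factors, was in 8 of the 23 windows (CUZD1, DRD4, EPS8L2, MAMDC4, PAPLN, SERPINB3, SERPINB4 and SYTL1), against 14.03% of all windows. The upstream stretches of SERPINB3 and SERPINB4 are nearly identical, so their windows are not separate cases. Only some of the motifs searched are given here. Among the others, TGGGAA was in 4 windows, against 24.0% of all windows, and CCAAT in 6, against 34.6%. GCCNNNGGC, bound by AP-2 factors, was in 9 windows of 8 genes, against 23.2% of all windows. ACATGTC, part of a p53 recognition sequence, was in none of the 23, against 1.59% of all windows. The known p53 targets PHLDA3, PRODH and TRIM22 had no window and were not searched. AGGTCA was in 2 windows (EME2 and MAMDC4), against 13.8%, and TGANTCA, bound by AP-1, in 1 (SYTL1), against 7.71%.

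The 31 genes together summed to 1515 to 1739 TPM in the 4 day-2 libraries, 338 to 341 TPM in the hPSC libraries and 184 to 372 TPM in the 12 day-4 libraries. The share of TPM from mitochondrial genes was 2.96 to 3.74% in the day-2 libraries, 0.960 to 1.23% in hPSC and 1.53 to 3.04% at day 4, and its part in the pattern was not tested. In bulk RNA, fewer cells that make a transcript and less of it per cell cannot be told apart. On the log2 scale the median rise over hPSC was 1.95 in aNE and 1.76 in pNE, and the range was 0.82 to 5.24 in aNE and 0.82 to 5.91 in pNE. The median of the smallest fall to any day-4 group was 1.83 in aNE-derived and 2.09 in pNE-derived cells. The highest group outside day 2 was hPSC for 9 genes, an aNE-derived day-4 group for 14 and a pNE-derived one for 8. The levels in the day-2 groups ran from 5.57 TPM on average for SERPINB4 in aNE to 350.0 TPM for CYP26A1 in pNE. Among the 31, 7 had means above 50 TPM in both day-2 groups and 13 had means under 20 TPM in both.

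**Figure D1:**
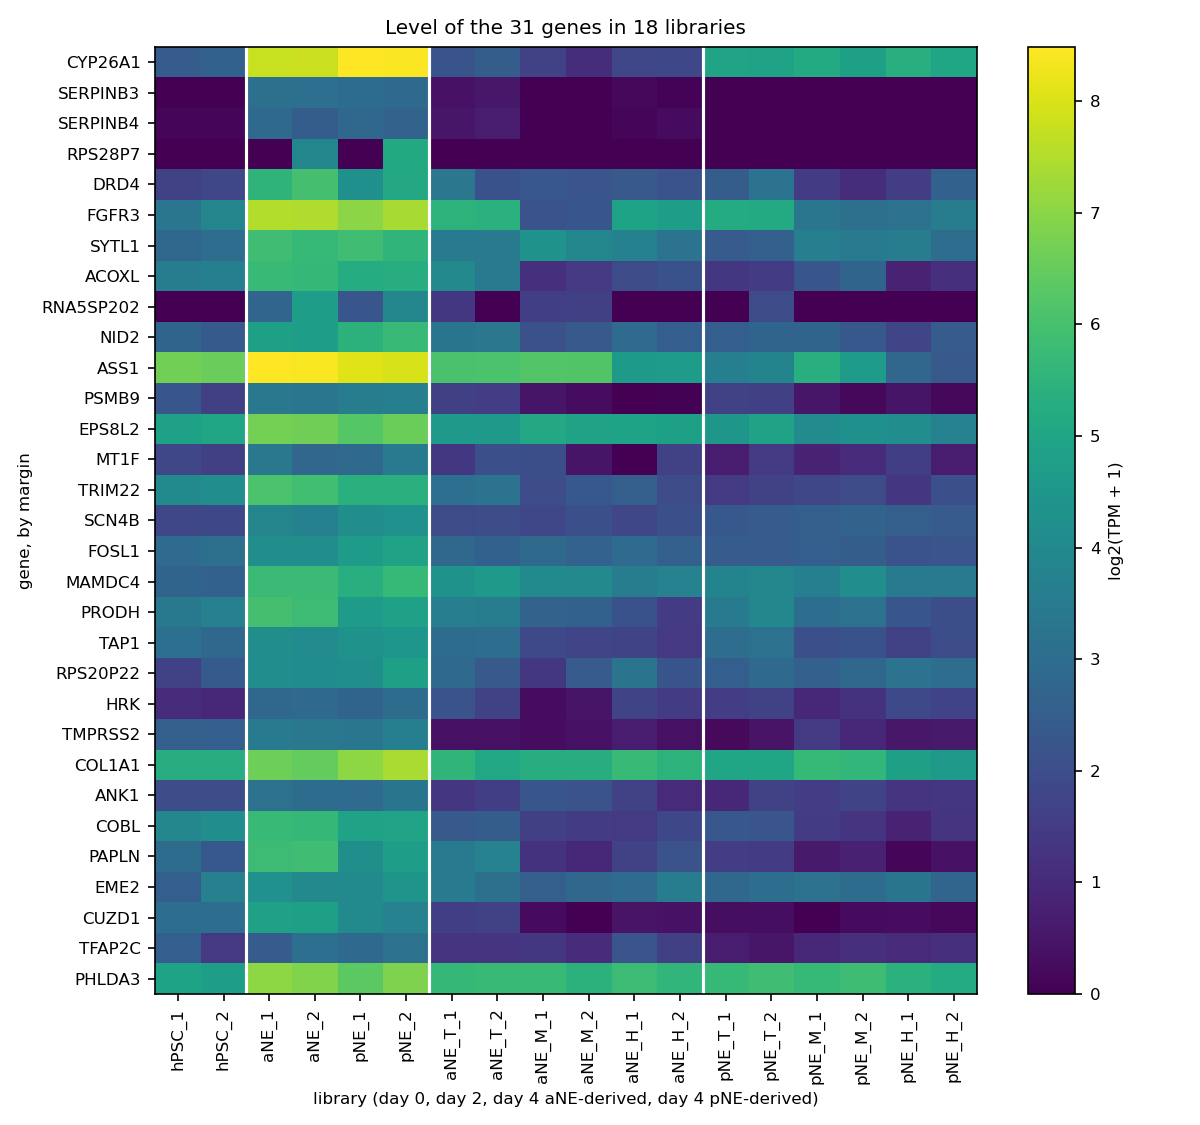
Level of each of the 31 genes (rows, ordered by margin) in each of the 18 libraries (columns), as log2(TPM + 1) from dark (low) to yellow (high), with white lines between day 0, day 2, aNE-derived day 4 and pNE-derived day 4. The 4 day-2 columns are the brightest of nearly every row; CYP26A1 stays brighter in the pNE-derived than in the aNE-derived day-4 columns, and RPS28P7 is bright in 1 library of each day-2 group.

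The retinoic acid hydroxylase CYP26A1 had the largest margin, 2.62. It was at 4.56 and 5.16 TPM in hPSC, 219 and 223 TPM in aNE, and 352 and 348 TPM in pNE. At day 4 it was at 1.15 to 4.63 TPM in the 6 aNE-derived libraries and 27.1 to 39.5 TPM in the 6 pNE-derived libraries. All 4 day-2 libraries were above every other library. Of the day-2 media only that of pNE held an added retinoid agonist, and the cause of the level in either group was not tested.

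The set also held ASS1, PRODH and ACOXL, genes of small-molecule metabolism. ASS1, which makes argininosuccinate in arginine synthesis, was at 101 and 91.9 TPM in hPSC, 357 and 339 TPM in aNE and 269 and 252 TPM in pNE. Its day-4 values were 64.7 and 66.99 TPM in aNE_T, 73.7 and 71.6 TPM in aNE_M, 23.8 and 25.0 TPM in aNE_H, 11.7 and 13.1 TPM in pNE_T, 38.7 and 24.0 TPM in pNE_M, and 5.99 and 4.22 TPM in pNE_H. All 12 day-4 libraries were thus below both hPSC libraries. PRODH, the mitochondrial enzyme that starts proline breakdown and a known p53-induced gene, was at 9.83 and 12.03 TPM in hPSC, 62.5 and 54.8 TPM in aNE, 24.4 and 28.1 TPM in pNE, against at most 14.3 TPM in a day-4 library. ACOXL, an acyl-CoA oxidase-like gene, was at 11.1 and 11.7 TPM in hPSC, 51.4 and 49.5 TPM in aNE, 37.6 and 38.3 TPM in pNE, against 0.762 to 14.8 TPM at day 4.

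Of cell surface receptors, FGFR3, an FGF receptor tyrosine kinase, was at 8.98 and 13.5 TPM in hPSC, 179 and 176 TPM in aNE and 128 and 166 TPM in pNE. At day 4 it was at 43.6 and 42.0 TPM in aNE_T, 3.47 and 3.81 TPM in aNE_M, 29.4 and 25.6 TPM in aNE_H, 35.9 and 35.7 TPM in pNE_T, 8.96 and 7.73 TPM in pNE_M, and 7.89 and 10.8 TPM in pNE_H. It was therefore above both hPSC libraries in aNE_T, aNE_H and pNE_T and below both in aNE_M and pNE_M. DRD4, a dopamine receptor, was at 2.15 and 2.52 TPM in hPSC, 45.3 and 62.1 TPM in aNE, 18.3 and 33.7 TPM in pNE, against 1.15 to 9.30 TPM at day 4. SCN4B, a sodium channel beta subunit, went from 2.55 ± 0.069 TPM (SD, n = 2) in hPSC to day-2 levels of 12.9 ± 0.95 TPM for aNE and 17.8 ± 0.97 TPM for pNE.

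Of genes of antigen processing, the rule chose PSMB9 and TAP1, which were at low levels. PSMB9, an inducible catalytic subunit of the immunoproteasome, was at 3.87 and 2.02 TPM in hPSC, 9.42 and 8.98 TPM in aNE, 11.2 and 11.4 TPM in pNE, against 0 to 2.11 TPM at day 4. Its neighbour TAP1, a subunit of the transporter that brings peptides to MHC class I, was at 6.78 ± 1.0 TPM (SD, n = 2) in hPSC, 17.2 and 15.9 TPM in aNE, 19.1 and 20.8 TPM in pNE, against 1.64 to 7.91 TPM at day 4. For both genes the forebrain-medium groups were the highest of the day-4 groups of either origin. TRIM22, an interferon-inducible antiviral ubiquitin ligase that is also a known p53 target, was at 15.4 and 16.8 TPM in hPSC, 67.3 and 58.9 TPM in aNE, 40.7 and 40.6 TPM in pNE, against 1.56 to 8.46 TPM at day 4.

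**Figure D2:**
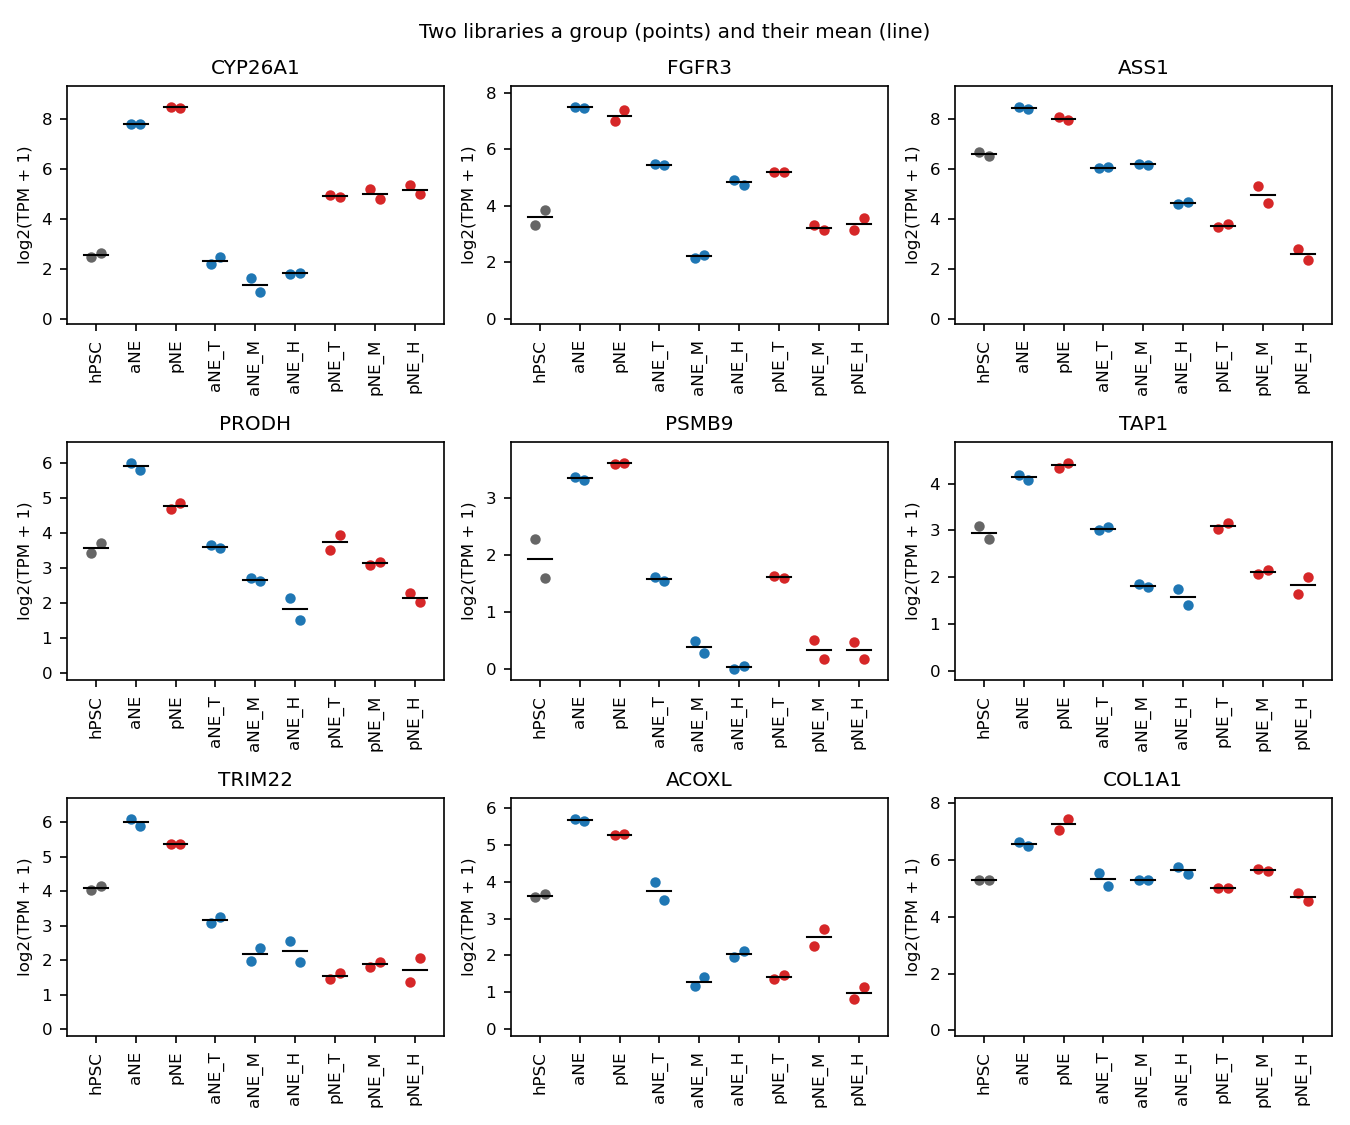
Levels of 9 of the genes as log2(TPM + 1), with 1 point per library, a line at the mean of the 2 libraries of each group, and grey for hPSC, blue for aNE and aNE-derived and red for pNE and pNE-derived groups. In each panel the aNE and pNE points lie above all others; FGFR3, PSMB9 and TAP1 are higher in forebrain medium than in midbrain or hindbrain medium.

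The serpins SERPINB3 and SERPINB4, intracellular protease inhibitors of squamous epithelia, were at or near 0 outside day 2. SERPINB3 was listed at 0 in both hPSC libraries, and was at 7.78 and 7.59 TPM in aNE and 7.08 and 6.54 TPM in pNE. It was listed at 0 in all 6 pNE-derived libraries and at 0 to 0.456 TPM in the aNE-derived ones. SERPINB4 was at 0.106 and 0.101 TPM in hPSC, 6.49 and 4.66 TPM in aNE, 6.27 and 5.55 TPM in pNE, against at most 0.582 TPM at day 4. The copies are nearly identical in sequence, so how the quantification divided reads between them is uncertain. TMPRSS2, a transmembrane serine protease, was at 4.91 and 4.79 TPM in hPSC, 10.7 and 9.60 TPM in aNE, 9.16 and 11.6 TPM in pNE, against 0.165 to 1.70 TPM at day 4. CUZD1, a zona pellucida domain protein, was at 7.40 and 7.36 TPM in hPSC, 27.8 and 27.2 TPM in aNE, 15.1 and 12.5 TPM in pNE, against at most 2.20 TPM at day 4.

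Matrix genes in the set were COL1A1, NID2 and PAPLN. COL1A1, the alpha-1 chain of type I collagen, was at 37.8 and 38.1 TPM in hPSC, 97.4 and 87.7 TPM in aNE, 131 and 171 TPM in pNE, against 22.5 to 52.8 TPM at day 4. NID2, a basement membrane nidogen, was at 5.59 and 4.34 TPM in hPSC, 27.2 and 25.8 TPM in aNE, 42.7 and 52.5 TPM in pNE, against 2.40 to 9.37 TPM at day 4. PAPLN, the matrix glycoprotein papilin, was at 6.99 and 4.08 TPM in hPSC, 54.8 and 57.8 TPM in aNE, 17.7 and 25.2 TPM in pNE, against 0.112 to 12.5 TPM at day 4. The first pair was higher in pNE than in aNE in every library, and PAPLN the reverse.

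Genes tied to the membrane skeleton and actin were EPS8L2, COBL and ANK1. EPS8L2, an actin-regulating EPS8 family member, went from 29.4 ± 2.3 TPM in hPSC to day-2 levels of 102 ± 3.6 TPM for aNE and 84.1 ± 14 TPM for pNE. COBL, an actin nucleator, was at 15.7 ± 1.9 TPM in hPSC and, at day 2, 50.0 ± 1.7 TPM for aNE and 29.4 ± 1.2 TPM for pNE, and at most 4.68 TPM at day 4. ANK1, an ankyrin, was at 3.02 ± 0.018 TPM in hPSC and, at day 2, 7.53 ± 0.77 TPM for aNE and 7.79 ± 1.4 TPM for pNE.

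Transcription factor genes were represented by FOSL1, an AP-1 subunit, and TFAP2C, AP-2 gamma. FOSL1 was at 6.82 and 7.68 TPM in hPSC, 17.2 and 17.4 TPM in aNE, 24.4 and 28.3 TPM in pNE, against 3.54 to 6.77 TPM at day 4. TFAP2C was at 4.83 and 1.63 TPM in hPSC, 4.58 and 7.53 TPM in aNE and 6.42 and 8.02 TPM in pNE. Its hPSC libraries differed from each other by more than its margin, and its lower aNE library was below its higher hPSC library.

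PHLDA3, a known p53 target that holds AKT off the membrane, was at 29.4 and 25.8 TPM in hPSC, 131 and 117 TPM in aNE, 80.5 and 113 TPM in pNE, against 36.2 to 57.5 TPM at day 4. HRK, a pro-apoptotic BCL2 family member, was at 1.01 ± 0.13 TPM in hPSC and, at day 2, 6.31 ± 0.14 TPM for aNE and 6.37 ± 0.91 TPM for pNE. SYTL1, a vesicle-tethering Rab effector, went from 6.72 ± 0.78 TPM in hPSC to day-2 levels of 54.0 ± 5.7 TPM for aNE and 52.4 ± 8.8 TPM for pNE. MAMDC4, an apical endosomal glycoprotein, went from 5.44 ± 0.35 TPM to 54.0 ± 0.44 TPM and 45.1 ± 7.9 TPM. MT1F, a metallothionein in a family of close copies, and EME2, a subunit of a structure-specific DNA endonuclease, had margins of 1.36 and 0.82.

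The 3 pseudogene entries, RPS28P7, RPS20P22 and RNA5SP202, derive from genes with many near-identical copies, and their values are uncertain. RPS28P7 was listed at 0 in the first library of both day-2 groups and was at 13.9 TPM in the second aNE library and 34.4 TPM in the second pNE library. RNA5SP202 was at 5.79 and 25.3 TPM in aNE and 3.80 and 14.3 TPM in pNE. RPS20P22 was at 16.8 and 16.4 TPM in aNE and 17.7 and 27.1 TPM in pNE. All 4 day-2 libraries were above all 14 others for 29 of the 31 genes, the exceptions being RPS28P7 and TFAP2C. The rule chose on these same libraries, so this count describes the set and is no support for it.

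Just inside the margin were CUZD1 (0.817), TFAP2C (0.816) and PHLDA3 (0.810). Just outside it were PLCL2 (0.769), SERPINE2 (0.769) and EGLN3 (0.765). EGLN3, a prolyl hydroxylase of the hypoxia response, was at 14.8 TPM on average in hPSC, 75.4 TPM for aNE, 28.8 TPM for pNE and at most 16.6 TPM in a day-4 group.

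The same measure was looked at in libraries that did not take part in the choice. With the rule applied to the 9 libraries of replicate 1 alone, 29 genes were chosen, and in the 9 libraries of replicate 2 the margin was above 0 for 27 of them and past 0.8 for 19. With the choice made in replicate 2, 33 genes were chosen, of which 27 were above 0 and 18 past 0.8 in replicate 1. For comparison, 7.92% of the genes at 5 TPM in both day-2 groups had a margin above 0 in replicate 2 and 6.08% in replicate 1. The median margin of the chosen genes was 1.099 in replicate 1 and 1.08 in the libraries not used. In the reverse direction it was 1.09 and 0.892. With 1 library a group there was no test. Of the 31 genes, 19 were past 0.8 in each replicate alone. Both replicates took part in the choice of the 31, so this count is only a description. Without the replicate 2 libraries RPS28P7 and TFAP2C had no positive margin, at 0 and -0.06.

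**Figure D3:**
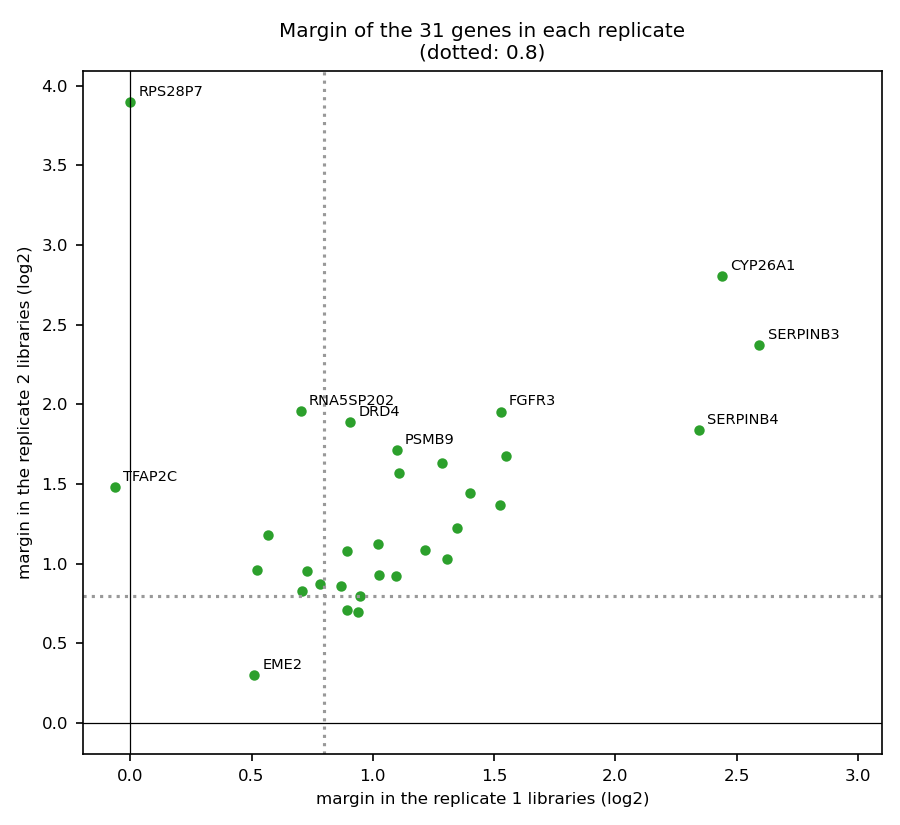
Margin of each of the 31 genes (log2 of the lower day-2 level minus the highest other level) in the replicate 1 libraries (x axis) and the replicate 2 libraries (y axis), with dotted lines at 0.8. CYP26A1 and SERPINB3 lie above 2 in both, whereas RPS28P7 and TFAP2C lie at or below 0 in replicate 1.

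Whether the origins differ in these genes at day 2, at equal plating density, was asked with limma, fitted to log2(TPM + 1) of 17033 genes in all 18 libraries. This difference was not part of the rule, which used only the lower of the day-2 groups. A gene was called at a Benjamini-Hochberg adjusted p under 0.05 and an absolute log2 difference of at least 1. All 31 genes were among those tested, each having passed the low-value filter through its day-2 level. PAPLN and PRODH were called lower in pNE, and 29 were not called, which is 2 of 31 beside 3.85% of all tested genes (2.37% higher and 1.48% lower). PAPLN differed by -1.37 ± 0.24 (SE, limma adjusted p = 0.00179) and PRODH by -1.13 ± 0.20 (SE, limma adjusted p = 0.00159). The PAPLN call was lost in a fit of only the 4 day-2 libraries (adjusted p = 0.0716, with 0.00115 to 0.0716 over its alternatives). By adjusted p alone 8 of the 31 genes passed, beside 13.6% of all tested genes. Those higher in pNE were NID2 by 0.81, COL1A1 by 0.69, CYP26A1 by 0.66 and FOSL1 by 0.58, and CUZD1, at -0.95, and COBL, at -0.75, were lower together with the called pair. DRD4 differed by -1.06 ± 0.43 (SE), which did not pass (limma adjusted p = 0.136). The median difference over the 31 was 0.01, with 16 above 0, and the median over all tested genes was -0.01.

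**Figure D4:**
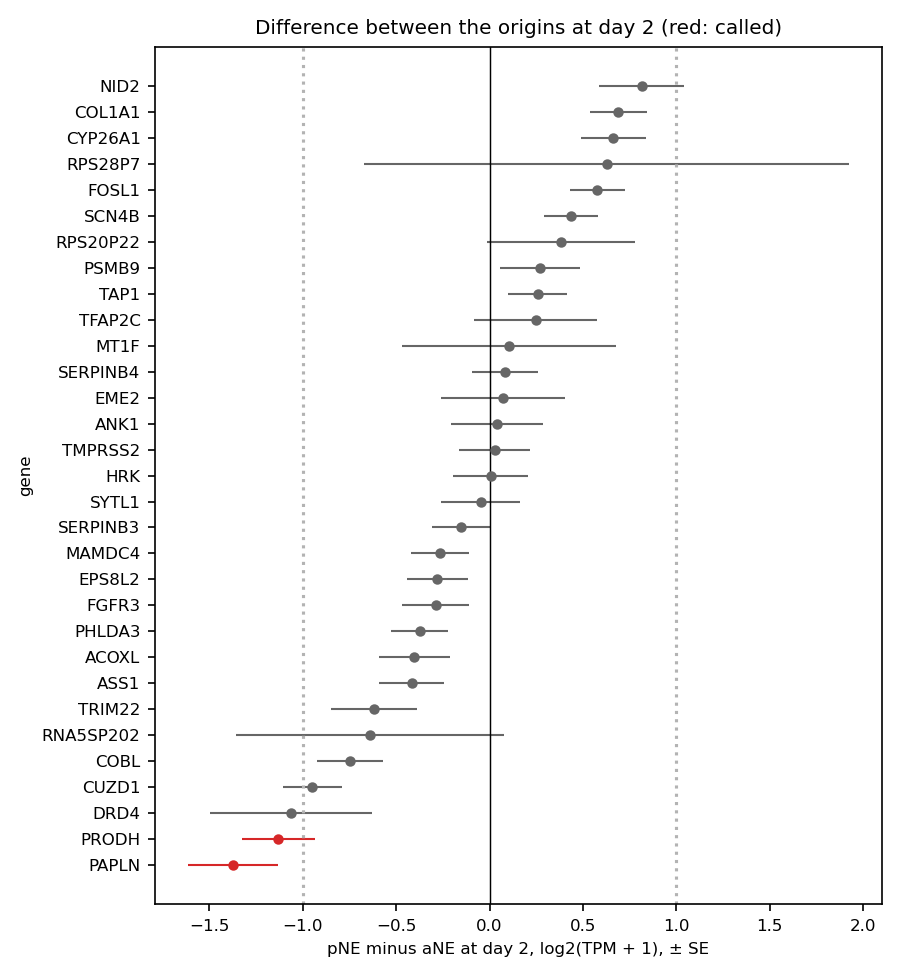
Difference between pNE and aNE at day 2 for each of the 31 genes on the log2(TPM + 1) scale, with its SE from limma and dotted lines at -1 and 1. PAPLN and PRODH, in red, were called lower in pNE; the other 29 points were not called.

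At day 4, 7 of the 31 genes were called for origin in at least 1 medium, beside 13.8% of all tested genes. CYP26A1, ACOXL and ASS1 were called in all 3 media, beside 1.54%. Plating density differed with origin here, and its part was not tested. In forebrain medium 6 genes were called, 1 higher and 5 lower in pNE_T, beside 7.77% of all tested genes (3.79% higher and 3.97% lower). In midbrain medium 4 were called, 3 higher and 1 lower, beside 5.74% (3.19% and 2.55%). In hindbrain medium 5 were called, 1 higher and 4 lower, beside 6.83% (3.92% and 2.91%). CYP26A1 was higher in pNE-derived cells by 2.58 ± 0.18 (SE, limma adjusted p = 1.98e-07) in forebrain medium, 3.63 ± 0.18 (SE, limma adjusted p = 1.26e-08) in midbrain medium and 3.34 ± 0.18 (SE, limma adjusted p = 2.19e-08) in hindbrain medium. ASS1 was lower, at -2.32 ± 0.17 (SE, limma adjusted p = 4.89e-07) in forebrain medium, -1.22 ± 0.17 (SE, limma adjusted p = 2.41e-04) in midbrain medium and -2.07 ± 0.17 (SE, limma adjusted p = 1.78e-06) in hindbrain medium. The ASS1 difference in midbrain medium was not called without the second pNE_M library (-0.89). ACOXL changed direction with the medium, at -2.33 in forebrain medium, 1.21 in midbrain medium and -1.05 in hindbrain medium. Without the second pNE_M library its midbrain value was 0.98, and without the second aNE_H or the first pNE_H library its hindbrain value was also no longer called.

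FGFR3 was higher in pNE_M than in aNE_M by 1.01 ± 0.18 (SE, limma adjusted p = 0.00133) and differed by -1.47 ± 0.18 (SE, limma adjusted p = 4.79e-05) between pNE_H and aNE_H. The first value was close to the threshold and was not called without the first aNE_M or the first pNE_M library (0.91 at the lowest). PAPLN was lower in pNE-derived cells in forebrain medium (-2.10) and hindbrain medium (-1.66), and its difference of -0.39 in midbrain medium did not pass. TRIM22 (-1.62) and CUZD1 (-1.32) were lower in pNE_T than in aNE_T. In fits of only the compared libraries, the midbrain calls of FGFR3, ACOXL and ASS1 and the hindbrain calls of FGFR3, ACOXL and PAPLN were lost, as was the midbrain call of FGFR3 under quantile normalization.

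Within an origin, midbrain medium and hindbrain medium were each set against forebrain medium. The comparisons of an origin share its forebrain-medium libraries. In aNE-derived cells 8 of the 31 genes were called in aNE_M against aNE_T, all lower, beside 10.1% of tested genes called and 6.55% called lower. In aNE_H against aNE_T 7 were called, all lower, beside 6.6% called and 4.83% called lower. In pNE-derived cells 3 were higher and 3 lower in pNE_M than in pNE_T, beside 8.6% called, 3.31% higher and 5.29% lower. In pNE_H 7 were lower than in pNE_T, beside 5.03% called and 3.38% lower. PSMB9 was called lower in all 4 of these comparisons, by -1.19 in aNE_M, -1.56 in aNE_H, -1.29 in pNE_M and -1.30 in pNE_H. TAP1 was called in 3 of them, at -1.21, -1.46 and -1.27, and its value of -0.99 in pNE_M was just short of the size required. FGFR3 was lower by -3.24 ± 0.18 (SE, limma adjusted p = 1.61e-08) in aNE_M and by -1.98 ± 0.18 (SE, limma adjusted p = 2.34e-06) in pNE_M. In hindbrain medium it was lower in pNE_H by -1.85, and its value of -0.62 in aNE_H was not called. ACOXL was lower in aNE_M by -2.46 and in aNE_H by -1.71, calls kept under every alternative run. PAPLN was lower in aNE_M by -2.53, in aNE_H by -1.69 and in pNE_H by -1.25, also kept under every alternative run. CUZD1 was lower in aNE_M (-1.498) and aNE_H (-1.19), and ASS1 in aNE_H (-1.40). PRODH was lower in hindbrain medium of either origin, by -1.77 in aNE_H and -1.58 in pNE_H. HRK (-1.55) and NID2 (-1.10) were lower in aNE_M, and DRD4 (-1.56) in pNE_M. NID2 was not called without the first aNE_M library (-0.97), nor DRD4 without the second pNE_T or the second pNE_M library. Higher in pNE_M than in pNE_T were ASS1 (1.23), ACOXL (1.07) and SYTL1 (1.02), and each was lost without at least 1 library. These were the first pNE_M library for ASS1, the second pNE_M library for ACOXL, and the first pNE_T or first pNE_M library for SYTL1. ASS1 was lower in pNE_H by -1.15 and COBL by -1.20, calls that were lost without the second and the first pNE_H library. Fits of only the compared libraries lost DRD4, ACOXL and ASS1 in pNE_M and ASS1, PRODH, TAP1 and COBL in pNE_H, and quantile normalization lost NID2 and TAP1 in aNE_M and CUZD1 in aNE_H.

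The rule required day 0 and day 4 both to lie below day 2, and did not fix their order. The mean of the 3 day-4 groups of an origin was therefore set against hPSC. The comparisons of the origins share the hPSC libraries, and their values are given side by side. In aNE-derived cells 7 of the 31 genes were called, 1 higher and 6 lower than hPSC, beside 16.8% of all tested genes (7.66% higher and 9.14% lower). In pNE-derived cells 11 were called, 2 higher and 9 lower, beside 18.8% (8.45% and 10.4%). Not called in either were 20 genes. The median difference was -0.11 in aNE-derived and -0.16 in pNE-derived cells, beside 0.07 and 0.03 over all tested genes.

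Called lower than hPSC in cells of both origins were ACOXL, COBL, CUZD1, PSMB9, TMPRSS2 and TRIM22. COBL, CUZD1, TMPRSS2 and TRIM22 were below both hPSC libraries in all 12 day-4 libraries, as were ASS1 and FOSL1. ACOXL in aNE_T (10.4 and 14.8 TPM) was not, nor was PSMB9 in forebrain medium. PSMB9 was at 2.05 and 1.93 TPM in aNE_T and 2.11 and 2.04 TPM in pNE_T, close to its second hPSC library at 2.02 TPM. CUZD1 was at -2.33 ± 0.13 (SE, limma adjusted p = 7.33e-09) in aNE-derived and -2.85 ± 0.13 (SE, limma adjusted p = 8.52e-10) in pNE-derived cells. COBL was at -2.17 and -2.48, TMPRSS2 at -2.13 and -1.84, TRIM22 at -1.57 and -2.38, ACOXL at -1.27 and -1.996, and PSMB9 at -1.28 and -1.18. PSMB9 was not called in either origin without the first hPSC library (-0.93 and -0.83). ASS1 (-2.83), PAPLN (-1.84) and TFAP2C (-1.06) were called lower in pNE-derived cells and had values of -0.96, -0.46 and -0.48 in aNE-derived cells. TFAP2C was not called without the first hPSC library (-0.49). Of the genes above day 0, MAMDC4 was higher by 1.36 ± 0.13 (SE, limma adjusted p = 1.08e-06) in aNE-derived and by 1.06 ± 0.13 (SE, limma adjusted p = 9.60e-06) in pNE-derived cells. The latter was not called without the second pNE_M library (0.98). CYP26A1 was higher by 2.48 ± 0.14 (SE, limma adjusted p = 9.52e-09) in pNE-derived cells and at -0.70 in aNE-derived cells.

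**Figure D5:**
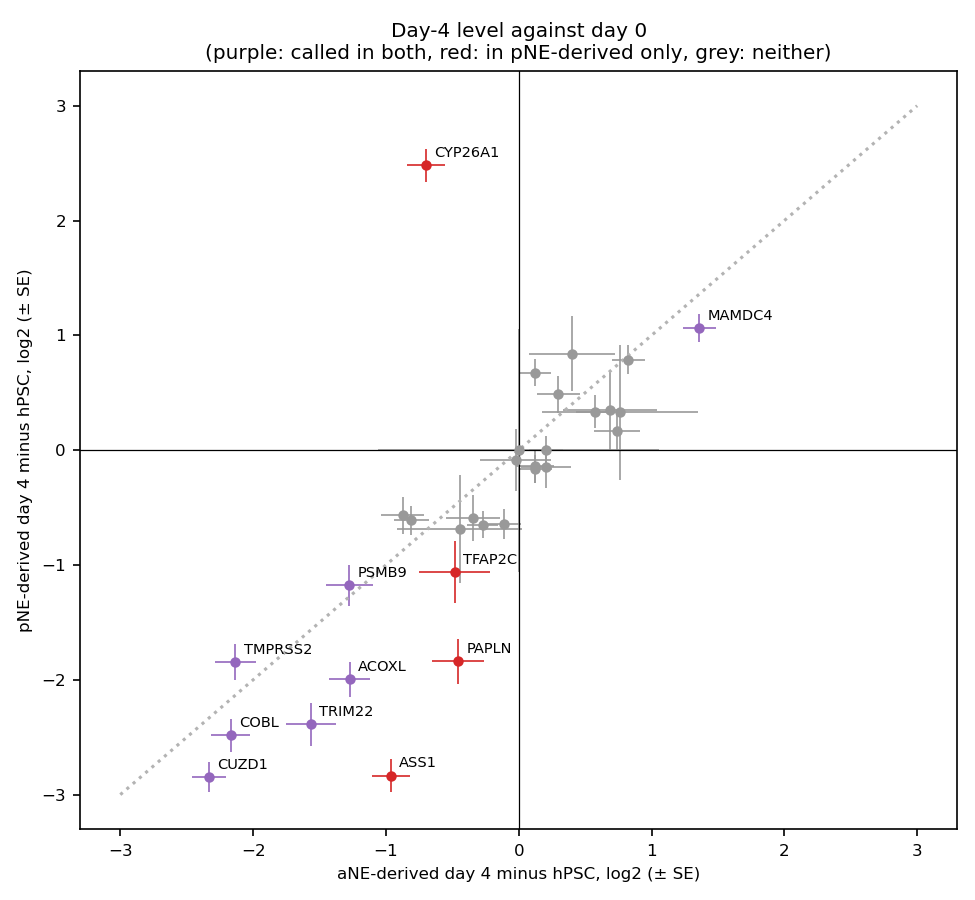
Mean of the 3 day-4 groups minus hPSC for each of the 31 genes, in aNE-derived (x axis) and pNE-derived cells (y axis), on the log2(TPM + 1) scale with SE from limma and a dotted line of equal values. CUZD1, COBL, TMPRSS2, TRIM22, ACOXL and PSMB9 lie below 0 on both axes, and CYP26A1 lies at 2.48 on the y axis and -0.70 on the x axis.

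How much the change from day 2 to day 4 differed between the origins was tested as an interaction, the mean change of pNE-derived cells minus that of aNE-derived cells. It was called for 4 of the 31 genes, beside 5.83% of all tested genes (2.74% higher and 3.09% lower). CYP26A1 fell less in pNE-derived cells, with an interaction of 2.52 ± 0.20 (SE, limma adjusted p = 2.11e-06), and so did PRODH, at 1.44 ± 0.23 (SE, limma adjusted p = 6.67e-04). ASS1 fell more, at -1.45 ± 0.20 (SE, limma adjusted p = 2.41e-04), and NID2 too, at -1.16 ± 0.26 (SE, limma adjusted p = 0.00936). COL1A1 (-0.98) and FOSL1 (-0.95) passed by adjusted p alone. The origin differences of PRODH and NID2 at day 4 were not called in any medium.

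Of 27 gene lists set beside the 31 genes, 21 held none of them, and 25 of the 31 were on no list. The lists with a member were the retinoid response (CYP26A1), the interferon and antigen presentation list (PSMB9 and TAP1), the immediate early and dissociation list (FOSL1), the matrix and integrin list (COL1A1), and the surface ectoderm and amnion lists (TFAP2C in both). Over the 10390 genes at 5 TPM in both day-2 groups the median margin was -0.43, and 7.77% were above 0. The list of p53 targets was the only one of the 27 with a higher median, -0.12. The mesendoderm and endoderm list had no gene at that level and so no median. The list did not hold PHLDA3, PRODH and TRIM22, which are also known p53 targets. None of its 18 genes met the rule, and 5 had a margin above 0, namely MDM2, FDXR, TP53I3, SESN1 and AEN. In the neural ectoderm list 4 of 12 genes at 5 TPM were above 0, with a median of -1.18. In the list of cell adhesion and junctions 6 of 25 were, with a median of -0.68.

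Against hPSC, 15 of the 18 p53 targets were called higher in aNE and 15 in pNE, beside 7.36% and 7.14% of all tested genes, and none lower, beside 6.19% and 5.74%. These comparisons were added after the data were seen and are those of the rule, so they are given only for genes outside the 31. CDKN1A, the p53-induced inhibitor of cyclin-dependent kinases, had means of 10.7 ± 0.45 TPM (SD, n = 2) in hPSC and, at day 2, 115 ± 3.0 TPM for aNE and 91.5 ± 3.9 TPM for pNE, and at 79.2 to 156 TPM on average in the day-4 groups. MDM2, the p53 ubiquitin ligase, was at 21.4 ± 3.5 TPM in hPSC and, at day 2, 46.2 ± 3.0 TPM for aNE and 68.1 ± 6.4 TPM for pNE, and at 23.7 to 34.6 TPM at day 4. The mean log2(TPM + 1) of the 18 genes was 3.72 to 3.80 in the hPSC libraries, 5.20 to 5.33 in the day-2 libraries, 4.88 to 5.11 in the aNE-derived and 4.50 to 4.72 in the pNE-derived libraries. At day 4, 8 of the 18 were still called higher than hPSC with aNE origin and 8 with pNE origin, with none lower. The median differences were 0.92 and 0.74. The list mean thus stayed above hPSC at day 4, and its part in the pattern of the 31 genes was not tested.

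Of 20 tested YAP and TEAD targets, which respond to spreading and density, 13 were called higher in aNE than in hPSC and 13 in pNE. These counts stand beside 7.36% and 7.14% of all tested genes. None of the list's genes at 5 TPM in both day-2 groups had a margin above 0, and the part of density in the pattern was not tested. Of 22 genes of the SRF and actin list 8 were higher and 1 lower in aNE, and 6 were higher and 1 lower in pNE, again with none above 0. Of 16 immediate early and dissociation genes other than FOSL1, 4 were higher and 1 lower in aNE, and 3 were higher and 2 lower in pNE. FOS was at -1.09 in aNE and -1.58 in pNE against hPSC, whereas more of these 16 genes were called higher than lower. The part of the passage in these values was not tested. Of the 20 tested interferon and antigen presentation genes other than PSMB9 and TAP1, 3 were higher and 2 lower in aNE and 1 was higher and 2 lower in pNE. PSMB8, the subunit encoded beside TAP1, was at 13.96 ± 1.7 TPM in hPSC and, at day 2, 12.3 ± 4.4 TPM for aNE and 16.1 ± 3.8 TPM for pNE, and was in no day-4 group above 4.88 TPM. B2M, the light chain of MHC class I, was at -0.65 in aNE and -0.33 in pNE against hPSC.

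In the retinoid response list, 3 of 15 tested genes other than CYP26A1 were higher in aNE than in hPSC and 9 in pNE, with 1 lower in each. DHRS3, a retinaldehyde reductase, rose by 1.21 in aNE and by 2.997 in pNE, and differed by 1.78 ± 0.12 (SE, limma adjusted p = 5.67e-07) between pNE and aNE. The FGF and ERK feedback list moved apart in the origins, with 2 of 17 genes higher and 5 lower in aNE and 3 higher and none lower in pNE. SPRY4, an ERK feedback inhibitor, was at 57.2 ± 5.8 TPM in hPSC and, at day 2, 5.71 ± 0.97 TPM for aNE and 81.8 ± 6.0 TPM for pNE. Of 17 genes of the ATF4 and amino acid response, 7 were higher in aNE and 12 in pNE with none lower, and PHGDH, SHMT2, PSAT1 and ASNS, which make serine, glycine or asparagine, had a margin above 0.

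The labelled cell types were set against their markers. The 12 neural ectoderm markers had summed levels of 1371 to 1377 TPM in aNE, 818 to 1022 TPM in pNE, against 449 to 463 TPM in hPSC, with 11 of 12 at 1 TPM or more in both day-2 groups and HES5 under it. At day 4 their sum was 1554 to 1610 TPM in aNE_T and 444 to 618 TPM in aNE_M, aNE_H and pNE_T. It was below hPSC in pNE_M (348 to 418 TPM) and pNE_H (208 to 239 TPM). The 7 pluripotency markers summed to 5333 to 5351 TPM in hPSC and 1605 to 1762 TPM at day 2, where NANOG was under 1 TPM. Most of the day-2 sum was LIN28A, with a mean of 1322 TPM for aNE and 1053 TPM for pNE. LIN28A was still at 713 to 1154 TPM on average in the day-4 groups. Of other cell types, the 9 surface ectoderm markers summed to 159 to 179 TPM in hPSC, 281 to 491 TPM at day 2 and 112 to 262 TPM at day 4. At day 2 KRT19 made up most of this, with a mean of 210.1 TPM for aNE and 330.2 TPM for pNE, and TFAP2A and TP63 were under 1 TPM. The 9 mesendoderm markers summed to 31.1 to 32.2 TPM in aNE, nearly all GSC. Their sum was highest in aNE_M, at 98.1 to 117 TPM, where MIXL1 had a mean of 86.5 TPM. The amnion markers at 1 TPM or more in hPSC and at day 2 were GABRP alone, and CDX2 had a mean of 249 TPM in pNE_M. SERPINB3, SERPINB4, TMPRSS2 and TFAP2C are known from epithelia; the surface ectoderm sum was highest at day 2 with them, but was also 250.1 to 262 TPM in pNE_T, where SERPINB3 and SERPINB4 were listed at 0. The part of such cells in these values was not tested.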

How the data were processed

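The authors deposited 1 table of TPM values, a length-scaled level per gene, with 1 column for each of the 18 libraries. Per the submitters' processing notes, kallisto was among the tools used and the build was hg38; versions, annotation and use of strand are not given in the sources used here. TPM keeps no depth, so no counting intervals are given. The 31 genes, the lists and the motifs were chosen with earlier results of these data known. Values were analysed as log2(TPM + 1), and fold changes on this scale understate changes of low genes. Genes reaching 1 TPM in 2 or more libraries (17033) were fitted with limma 3.58.1 in R 4.3.3, 1 mean per group and 9 residual degrees of freedom, with a trend in the variance, two-sided tests and Benjamini-Hochberg adjustment over all tested genes. The fit was tested on simulated data. Of the 31, the rule named the 20 with the largest margin, those on a list, the 5 largest non-overlapping calls per comparison and direction, up to 4 per role and the 3 genes on either side of the margin; genes named outside it, and the comparisons of day 2 with hPSC for the lists, were chosen after their values were seen. Alternatives were a pseudocount of 0.1, other filters, median-ratio scaling, quantile normalization, fits of the compared libraries alone, a replicate block, calls by adjusted p alone and leaving out each library. Sequences are from RefSeq on GRCh38.p14, matched by symbol.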

Additional observations from a re-analysis of the deposited data

Results flagged for a closer look

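The change from day 2 to day 4 differed between the origins by the test of that difference for 4 genes, as the mean over the 3 media. CYP26A1 had an interaction of 2.52, PRODH of 1.44, ASS1 of -1.45 and NID2 of -1.16 on the log2 scale, where a positive value means a smaller fall in pNE-derived cells. The NID2 value was not called without the second aNE or the second pNE library (adjusted p at most 0.0535 over its alternatives, -1.02 at the smallest). With 2 libraries a group, no test for a deviating library was possible.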

How the results depend on the processing

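The rule gave 31 genes, 68 with a margin of 0.5, 20 with a margin of 1, and 29 to 33 from either replicate alone. Of the 29 genes from replicate 1 alone, 22 were among the 31, and of the 33 from replicate 2 alone, 26 were. By adjusted p alone the calls among the 31 were 8 for pNE against aNE at day 2, 11, 8 and 10 for origin in forebrain, midbrain and hindbrain medium, 18 and 12 for aNE_M and aNE_H against aNE_T, 13 for pNE_M against pNE_T, and 14 and 20 for aNE-derived and pNE-derived day 4 against hPSC. Of all tested genes, 13.6%, 21.1%, 16.6%, 21.9%, 32.5%, 27.2%, 28.5%, 53.6% and 55.8% passed in the same order. In fits of only the libraries compared, which leave fewer degrees of freedom, they were 1 at day 2, 2 and 2 for origin in midbrain and hindbrain medium, and 3 and 3 for pNE_M and pNE_H against pNE_T. With a pseudocount of 0.1 they were 10 for origin in forebrain medium, 14 for aNE_M against aNE_T and 10 for pNE_M against pNE_T; the cause was not tested. Without 1 library, the counts in the order of the report were 2 to 3, 6 to 7, 3 to 4, 5 to 6, 8 to 10, 7 to 8, 4 to 6, 6 to 7, 7 to 9, 9 to 12 and 3 to 6, and the p53 target counts 14 to 15. The share of all tested genes was not computed for the compared-library fits, the pseudocount or the left-out libraries. Whether these counts moved differently from those of all genes was therefore not tested. Of the 67 called differences, 44 stayed called under every alternative run, 23 were lost under at least 1 (14 of them in the fits of the compared libraries, 16 without 1 library) and none changed sign. The replicate numbers did not pair the libraries (correlation of deviations -0.09 to 0.08 over 36 pairs of groups), and with the replicate block the 13 counts were the same, for example 2 at day 2 and 11 for pNE-derived cells against hPSC. Median-ratio scaling gave 27 genes, all among the 31, and lost COBL, CUZD1, PHLDA3 and TFAP2C. Quantile normalization gave 25, also all among the 31, and lost these genes together with ANK1 and EME2. Depth is unknown, so values near 0 were read only as listed.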
